A study of Mus musculus with 11 samples.

Results

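Serpins, plasminogen activation and the start of coagulation were followed through 8 genes in BV2 cells, an immortalized line of mouse microglia. The genes were Plau, Plaur, Serpinb2, F3, F10, Serpinb9, Serpina3f and Serpina3g. They were matched by symbol among the 36529 genes listed in each count table, and all 8 were found. They were selected on their changes with each fragment and on the difference between the fragments in these same samples, so those values describe the choice and carry no test here. RNA from 11 samples was sequenced. In one experiment, 3 samples received nApoE4, the amino-terminal fragment of human apolipoprotein E4, and 3 were untreated (the nApoE4 controls). In another, 2 samples received nApoE3, the same stretch of apolipoprotein E3, and 3 were untreated (the nApoE3 controls). Both fragments cover residues 1 to 151 and were given at 25 µg/ml for 5 h. The labels give the strain of all samples as C57BL/6 and name PBS as the vehicle, while the methods of the study describe conditioned media for untreated cells, and which of these the controls received is not known. The samples are cultures of 1 cell line, and no label says that they came from separate passages or days, so the p-values measure only the spread between these samples. Each fragment was run in its own experiment, so fragment and experiment cannot be told apart when the fragments are compared.

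Plasmin is the protease that dissolves fibrin and cuts other proteins of the cell surroundings. It is made from plasminogen by urokinase, encoded by Plau, or by tissue plasminogen activator, encoded by Plat, and the urokinase receptor encoded by Plaur holds urokinase on the cell surface. Serpins are protease inhibitors that trap their target in a stable complex. PAI-2, encoded by Serpinb2, blocks both activators, while intracellular serpins such as the product of Serpinb9 guard a cell against granzymes. Tissue factor, encoded by F3, starts coagulation by helping factor VII activate factor X, encoded by F10. Microglia and macrophages are known for changing this system when they are activated.

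Depth was 39732710 to 44162511 counts on genes per sample in the nApoE4 experiment and 55809688 to 69768666 in the nApoE3 experiment, so that 3 counts, taken as the floor of a library, stood for 0.0425 to 0.0756 CPM, the unit of counts scaled to the normalized library size. Of 12 markers of microglia and macrophages, 10 had a mean above 1 CPM in some group, while Aif1 and Cx3cr1 were below it. Of 5 markers of homeostatic microglia 1 was above 1 CPM, and P2ry12 was at 0 in all samples. No marker of T and NK cells, fibroblasts or hepatocytes was above 1 CPM, and of 4 neutrophil markers S100a8 reached 1.04 CPM with nApoE4 while Ly6g was at 0. The untreated samples of the 2 experiments were far apart, with 9879 of 14249 genes tested (69.3%) past an adjusted p of 0.05 in edgeR's quasi-likelihood test. The change with each fragment is therefore read only against its own controls. Where levels are set side by side across the experiments, they are a description in which fragment and experiment cannot be told apart.

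With nApoE4, 7 of the 8 genes were higher than in the controls and Plau was lower, all past an adjusted p of 0.05. The background was 57.2% of the 14240 genes tested, with 28.6% higher and 28.6% lower. With nApoE3, all 8 genes were higher and past that threshold, against 67.7% of 14817 genes, with 33.1% higher and 34.6% lower. The median log2 fold change of the 8 genes was 1.1 with nApoE4 and 2.06 with nApoE3, beside medians of 0.0013 and -0.0026 over all genes tested. In none of the 8 genes did treated and control samples overlap, for either fragment. This held for 63.6% of all genes tested with nApoE4 and 77.6% with nApoE3. Because these contrasts were used to choose the genes, nothing is read from the counts. In bulk RNA, fewer cells that express a gene and less RNA per cell cannot be told apart.

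**Figure D1:**
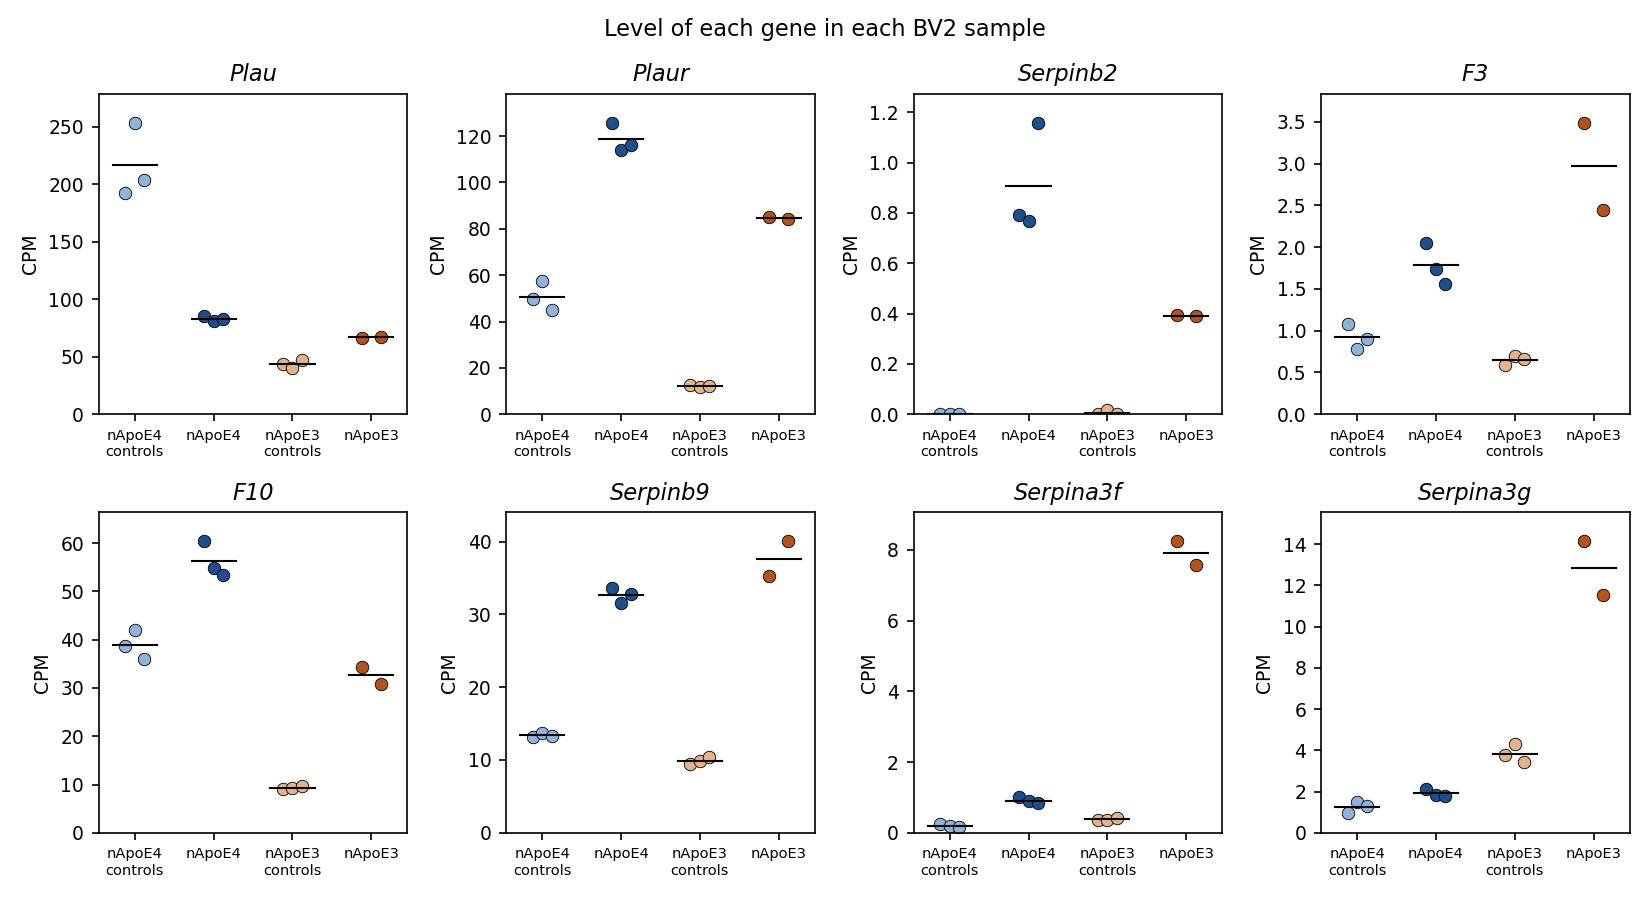
Each panel shows 1 gene, with CPM on a linear axis from 0, 1 point for each of the 11 samples and a bar at the group mean. Plau is the gene whose points drop with nApoE4, from 192 to 254 CPM down to 81.0 to 85.2, and climb with nApoE3, from 40.3 to 47.1 up to 66.6 and 67.2.

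Plau, on chromosome 14 (chr14:20836660-20843385 of GRCm38, plus strand), encodes urokinase, the secreted enzyme that turns plasminogen into plasmin. The nApoE4 controls held 192, 254 and 203 CPM and the samples with nApoE4 held 85.2, 81.0 and 82.6 CPM. The nApoE3 controls held 43.4, 40.3 and 47.1 CPM and the samples with nApoE3 held 66.6 and 67.2 CPM. Every sample with nApoE4 was below all of its controls and both samples with nApoE3 were above theirs. The log2 fold change was -1.38 (SE 0.10) with nApoE4 and 0.61 (SE 0.05) with nApoE3. Even after its decrease, Plau stood higher with nApoE4 than with nApoE3, and the order of the 4 groups from high to low was nApoE4 controls, nApoE4, nApoE3 and nApoE3 controls, with no overlap between neighbours. Among the 13750 genes tested with both fragments, 255 (1.85%) were lower with nApoE4 and higher with nApoE3 at an adjusted p under 0.05, and 502 (3.65%) moved in opposite directions either way.

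Plaur, on chromosome 7 (chr7:24462484-24475968, plus strand), encodes the lipid-anchored receptor that holds urokinase at the cell surface. The nApoE4 controls held 49.5, 57.5 and 45.0 CPM and the samples with nApoE4 held 126, 114 and 116 CPM. The nApoE3 controls held 12.8, 11.6 and 12.4 CPM and the samples with nApoE3 held 85.2 and 84.3 CPM. The log2 fold change was 1.23 (SE 0.09) with nApoE4 and 2.78 (SE 0.04) with nApoE3. Although the rise was larger with nApoE3, the level reached was highest with nApoE4, whose controls had started higher. With nApoE4 the RNA levels of the receptor and its ligand therefore moved in opposite directions, and with nApoE3 both were higher.

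Serpinb2, on chromosome 1 (chr1:107511423-107535478, plus strand), encodes PAI-2, an inhibitor of both plasminogen activators that is held largely inside the cell. None of the 3 nApoE4 controls had a count, and the samples with nApoE4 had 34, 32 and 46 counts, or 0.793, 0.770 and 1.16 CPM. The nApoE3 controls had 0, 1 and 0 counts and the samples with nApoE3 had 23 and 22 counts, or 0.395 and 0.390 CPM. The gene was thus at or under the floor in all 6 controls and present in all 5 treated samples, at a low level. With nApoE4 it was at least 13.5-fold higher, taking 3 counts per library as the floor of the controls. With nApoE3 the 45 counts against 1 gave a ratio of 74.1, with an exact 95% interval of 12.6 to 2992 that covers counting error only. The 1 count was in replicate 2 of the nApoE3 controls. Without that library the remaining controls were at 0, the gene was at least 8.2-fold higher at the same floor, and the fitted log2 fold change, which is no bound, moved from 5.74 to 7.57. Of the 2349 exonic bases of Serpinb2, 291 (12.4%) lie in exons of its neighbour Serpinb10 on the same strand, and 9.0% of its 75-base stretches also occur in Serpinb10, so that reads from there could be left uncounted or assigned to either gene.

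F3, on chromosome 3 (chr3:121723537-121735048, plus strand), encodes tissue factor, the membrane protein that starts coagulation. Its levels were 1.08, 0.78 and 0.90 CPM in the nApoE4 controls and 2.05, 1.73 and 1.56 CPM with nApoE4. In the other experiment they were 0.59, 0.69 and 0.66 CPM in the controls and 3.49 and 2.44 CPM with nApoE3. The log2 fold change was 0.96 (SE 0.20) with nApoE4 and 2.19 (SE 0.19) with nApoE3. The 2 samples with nApoE3 differed among themselves by more than those with nApoE4 did, and both were above every other sample.

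F10, on chromosome 8 (chr8:13037308-13056676, plus strand), encodes factor X, the protease that, once activated, makes thrombin. Its levels were 38.6, 42.0 and 36.0 CPM in the nApoE4 controls and 60.4, 54.8 and 53.5 CPM with nApoE4. In the nApoE3 experiment they were 9.12, 9.31 and 9.60 CPM in the controls and 34.3 and 30.9 CPM with nApoE3. The log2 fold change was 0.54 (SE 0.07) with nApoE4, the smallest in size of the 8, and 1.80 (SE 0.05) with nApoE3. The samples with nApoE3 stayed below the untreated samples of the nApoE4 experiment.

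Serpinb9, on chromosome 13 (chr13:33003250-33017957, plus strand), encodes an intracellular inhibitor of granzyme B. Its levels were 13.1, 13.8 and 13.3 CPM in the nApoE4 controls and 33.6, 31.5 and 32.8 CPM with nApoE4. They were 9.45, 9.84 and 10.4 CPM in the nApoE3 controls and 35.2 and 40.0 CPM with nApoE3. The log2 fold change was 1.29 (SE 0.06) with nApoE4 and 1.93 (SE 0.06) with nApoE3. Of the 7 genes with fitted changes in both experiments, Serpinb9 had the levels most alike between the experiments, both before and after treatment.

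Serpina3f and Serpina3g are neighbours on chromosome 12 (chr12:104214544-104221129 and chr12:104236245-104241939, both on the plus strand) and belong to the mouse group of serpins related to human antichymotrypsin. Serpina3f was at 0.23, 0.18 and 0.15 CPM in the nApoE4 controls and at 1.00, 0.89 and 0.83 CPM with nApoE4. It was at 0.37, 0.36 and 0.41 CPM in the nApoE3 controls and at 8.25 and 7.56 CPM with nApoE3. Its log2 fold change was 2.27 (SE 0.27) with nApoE4 and 4.38 (SE 0.14) with nApoE3. Serpina3g, whose product inhibits cathepsins inside the cell, was at 0.96, 1.47 and 1.29 CPM in the nApoE4 controls and at 2.15, 1.83 and 1.79 CPM with nApoE4. It was at 3.77, 4.31 and 3.44 CPM in the nApoE3 controls and at 14.1 and 11.5 CPM with nApoE3. Its log2 fold change was 0.63 (SE 0.20) with nApoE4 and 1.73 (SE 0.11) with nApoE3. For Serpina3g, even the untreated samples of the nApoE3 experiment were above the samples with nApoE4. Part of each sequence is shared with other genes of the cluster, 5.33% of the 75-base stretches of Serpina3f and 7.69% of those of Serpina3g, and reads that mapped to several places were not counted.

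**Figure D2:**
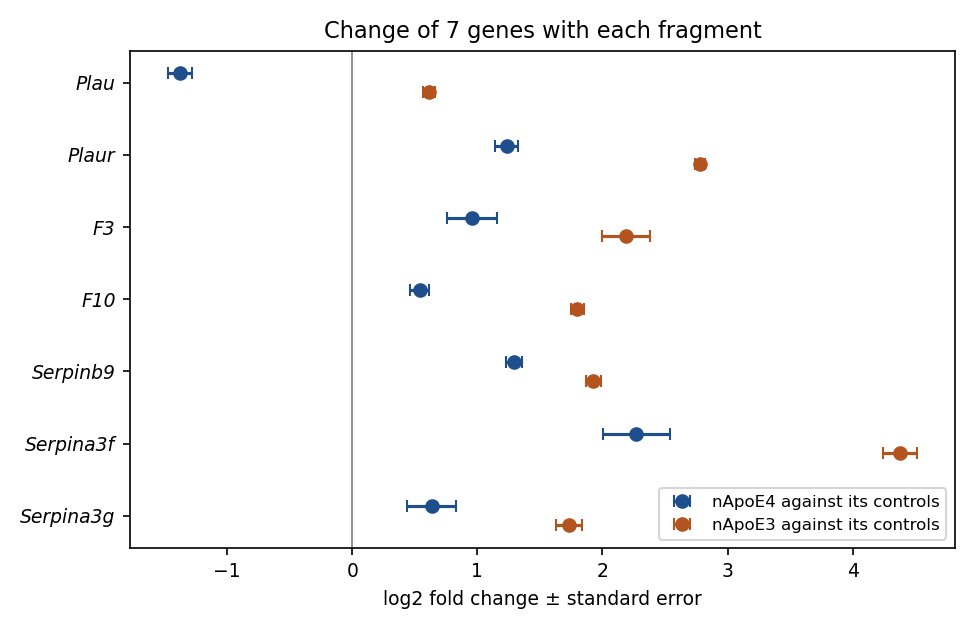
Points show the log2 fold change of 7 genes against the untreated samples of the same experiment, bars the approximate standard error (3 against 3 samples for nApoE4 and 2 against 3 for nApoE3). Serpinb2 is left out because its controls were at or under the floor. Each gene lies further right with nApoE3, and Plau alone lies left of 0, at -1.38 with nApoE4.

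Set side by side, the change with nApoE4 minus that with nApoE3 was negative for each of the 7 genes in the plot of changes by fragment. The difference of log2 fold changes was -2.0 for Plau, -2.11 for Serpina3f, -1.56 for Plaur, -1.27 for F10, -1.24 for F3, -1.11 for Serpina3g and -0.64 for Serpinb9. All 7 were past an adjusted p of 0.05, where 28.3% of 15287 genes were, with 13.9% lower. These are again contrasts from which the genes were chosen. For Serpinb2 no difference is given, since both of its control groups were at or under the floor.

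The untreated controls of the 2 experiments give a comparison in which no fragment was added. The same control samples also enter the contrasts from which the genes were chosen, the difference between the fragments among them. The p-values of these genes below are therefore no independent test. Serpinb2 was too low for this comparison. The other 7 genes differed between the control groups, each past an adjusted p of 0.05 in edgeR's quasi-likelihood test with Benjamini-Hochberg adjustment, against the background of 69.3%. Of the 7 genes, 5 were lower in the nApoE3 controls than in the nApoE4 controls and 2 were higher, against 34.9% and 34.4% of all genes tested. The log2 difference of the nApoE3 controls from the nApoE4 controls was -2.33 for Plau (SE 0.11, adjusted p = 1.18e-06), -2.07 for F10 (SE 0.07, adjusted p = 3.07e-07) and -2.06 for Plaur (SE 0.09, adjusted p = 1.05e-06). The RNA levels of urokinase, its receptor and factor X thus started 4.18 to 5.02-fold apart. Serpinb9 was closer, at -0.45 (SE 0.06, adjusted p = 0.000301). The 2 serpins of chromosome 12 went the other way, at 1.61 for Serpina3g (SE 0.17, adjusted p = 6.29e-05) and 0.99 for Serpina3f (SE 0.27, adjusted p = 0.0104). For Serpina3f the adjusted p was 0.0504 in DESeq2. F3 stood at -0.52 (SE 0.19, adjusted p = 0.0396). This call for F3 was lost in DESeq2 (adjusted p = 0.0903), with genes kept on 1 count (adjusted p = 0.0841), with a replicate block (adjusted p = 0.0878) and when any control sample but replicate 2 of the nApoE4 controls was left out. Its adjusted p was then 0.139 and 0.0743 without replicates 1 and 3 of the nApoE4 controls, and 0.124, 0.0716 and 0.0858 without replicates 1, 2 and 3 of the nApoE3 controls.

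**Figure D3:**
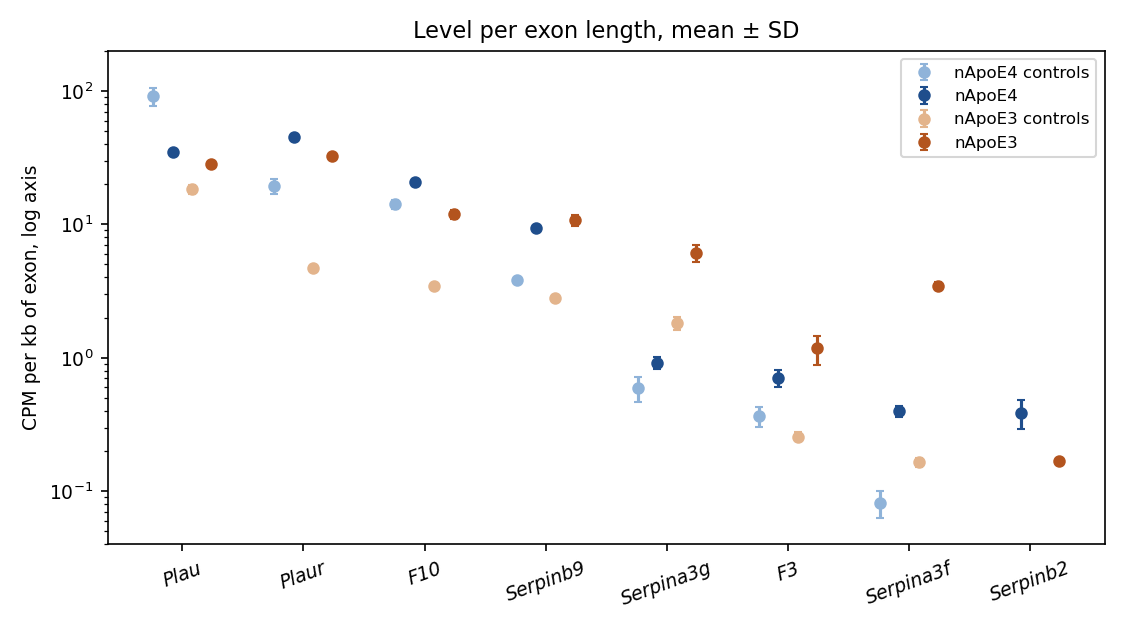
The mean level of each gene in each group is shown as CPM per kb of exon on a log axis, with the SD over samples (n = 3, or 2 for nApoE3) as bars. Plau leads among the nApoE4 controls at 91.4 and Plaur leads among the treated samples at 45.4 and 32.4. The control groups of Serpinb2, at 0 and 0.0023, are below the axis and not drawn.

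Scaled to exon length, so that genes can be set against each other, Plau had the highest level of the 8 in untreated cells, at 91.4 ± 13.8 CPM per kb in the nApoE4 controls (SD, n = 3) and 18.4 ± 1.43 in the nApoE3 controls (SD, n = 3). Plaur was at 19.4 ± 2.42 and 4.68 ± 0.241 CPM per kb in the same groups. After treatment the order of the pair turned with both fragments. With nApoE4, Plaur was at 45.4 ± 2.39 and Plau at 35.0 ± 0.892 CPM per kb (SD, n = 3), and with nApoE3, Plaur was at 32.4 ± 0.235 and Plau at 28.3 ± 0.18 (SD, n = 2). F10 came next in the nApoE4 experiment, at 14.2 CPM per kb in the controls and 20.6 with nApoE4. Serpinb9 lay between 2.83 and 10.8 CPM per kb over the 4 groups, and F3, Serpina3f, Serpina3g and Serpinb2 stayed below 6.10 in each of them.

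The sequence just before a start of 7 of the 8 genes was read from RefSeq for GRCm38.p6, and Plau had no entry in that table. The entries used held 2 starts each for Serpinb2 and Serpina3f, and positions are counted from the upstream of these unless stated. The RefSeq genes Serpinb2, Plaur and Serpinb9 begin further upstream, at chr1:107500892, chr7:24460937 and chr13:32997061. Their windows therefore lie inside those genes, before a later start. The letters of 5 motifs were searched on both strands of the 250 bases before the start. The AP-1 letters TGANTCA were found for Plaur, Serpinb2 and F3, the genes of the urokinase receptor, PAI-2 and tissue factor, and in 6.75% of 32851 such windows over all genes. These 3 windows are printed 5′ to 3′ on the plus strand, with capitals marking the letters of AP-1 and of C/EBP (TTGCNNAA or its complement, in 9.56% of windows).
Plaur, chr7:24462233-24462482: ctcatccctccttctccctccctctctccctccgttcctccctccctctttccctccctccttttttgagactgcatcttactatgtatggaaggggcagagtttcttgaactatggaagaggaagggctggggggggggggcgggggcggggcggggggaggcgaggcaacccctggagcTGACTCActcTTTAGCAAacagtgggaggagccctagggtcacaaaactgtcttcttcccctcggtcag
Serpinb2, chr1:107511173-107511422: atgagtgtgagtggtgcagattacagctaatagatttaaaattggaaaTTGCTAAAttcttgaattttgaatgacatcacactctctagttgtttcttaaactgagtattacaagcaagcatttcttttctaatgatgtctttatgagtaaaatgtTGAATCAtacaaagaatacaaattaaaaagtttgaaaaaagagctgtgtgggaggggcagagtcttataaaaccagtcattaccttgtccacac
F3, chr3:121723287-121723536: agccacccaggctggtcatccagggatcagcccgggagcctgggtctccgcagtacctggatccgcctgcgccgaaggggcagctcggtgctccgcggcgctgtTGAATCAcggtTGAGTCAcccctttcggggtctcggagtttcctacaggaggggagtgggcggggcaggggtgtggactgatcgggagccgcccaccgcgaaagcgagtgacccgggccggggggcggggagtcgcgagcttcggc
The AP-1 letters lie 69 to 63 bases before the start in Plaur and 94 to 88 before it in Serpinb2. In F3 they occur 2 times, at 146 to 140 and 135 to 129. The C/EBP letters are at 59 to 52 in Plaur, close to its AP-1 letters without overlapping them, and at 202 to 195 in Serpinb2. Counted from the downstream start of Serpinb2, the same AP-1 letters are at 181 to 175, and that window also held GAS letters (TTCNNNGAA) at 77 to 69 and C/EBP letters at 19 to 12.

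The neighbours Serpina3f and Serpina3g both held the GAS letters, which were in 7.02% of all windows. Their windows are shown as a pair because the genes are neighbours with related upstream sequence, with 126 of 152 aligned bases identical (82.9%). Capitals mark GAS letters in both, and C/EBP letters as well in Serpina3f.
Serpina3f, chr12:104214294-104214543: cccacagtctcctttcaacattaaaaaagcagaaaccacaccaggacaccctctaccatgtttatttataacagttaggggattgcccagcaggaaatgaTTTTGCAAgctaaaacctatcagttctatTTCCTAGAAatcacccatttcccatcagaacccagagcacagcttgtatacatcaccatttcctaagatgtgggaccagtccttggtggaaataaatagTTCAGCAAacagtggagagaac
Serpina3g, chr12:104235897-104236146: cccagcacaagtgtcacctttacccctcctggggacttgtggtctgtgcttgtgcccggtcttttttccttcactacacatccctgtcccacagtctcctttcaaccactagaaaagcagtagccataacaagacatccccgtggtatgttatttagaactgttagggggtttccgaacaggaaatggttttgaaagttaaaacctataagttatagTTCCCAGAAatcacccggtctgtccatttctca
The GAS letters are 121 to 113 bases before the RefSeq start in Serpina3f and 33 to 25 before it in Serpina3g. In this pair only the window of Serpina3f held C/EBP letters, at 150 to 143 and 22 to 15. The Serpina3g window ends closer to its GAS letters, so sequence matching the site at 22 to 15 was not searched there. From the downstream start of Serpina3f, the GAS letters are at 210 to 202 and the C/EBP letters at 239 to 232 and 111 to 104. The window of Serpinb9 held the ISRE letters TTTCNNTTT at 46 to 38, as did 9.37% of all windows. That window, chr13:33004291-33004540, lies inside the gene as placed above (chr13:33003250-33017957) and not before it. The exact NF-kB letters GGGANNTTC, in 3.23% of windows, were in none of the 7, and the window of F10 held none of the 5 motifs. Stretches that differ from the letters were not searched. In the F3 window cggagtttc, downstream of the AP-1 letters, differs from the NF-kB letters in its first base only. These are matches of letters in a short window, and no binding was measured.

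**Figure D4:**
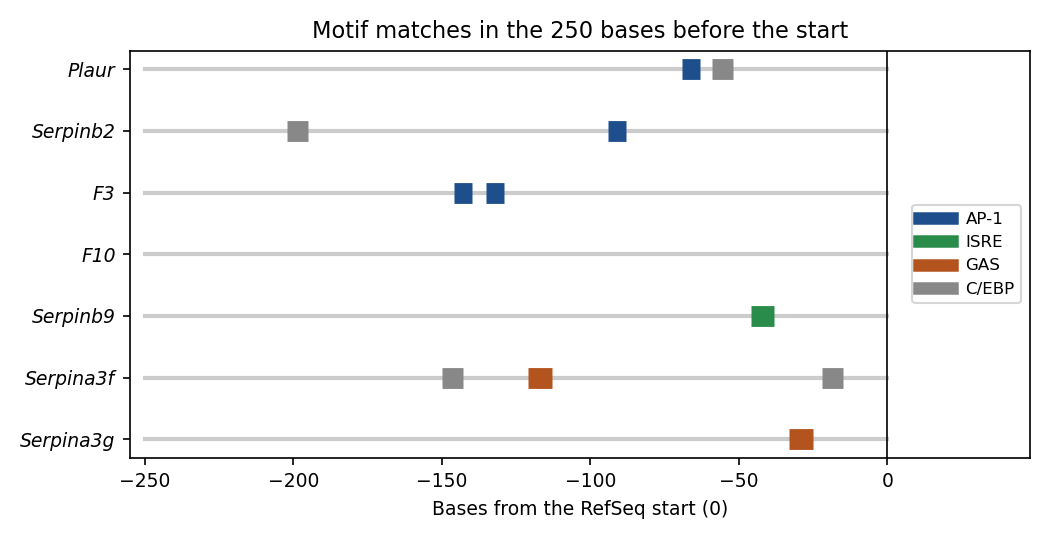
Grey lines are the 250 bases before the RefSeq start used for 7 genes, the upstream of the 2 used for Serpinb2 and Serpina3f. Coloured blocks are matches to 4 of the 5 motifs searched, by distance in bases from the start. In these windows AP-1 blocks lie within 146 bases of the start in Plaur, Serpinb2 and F3, and GAS blocks are in the 2 Serpina3 genes.

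The rest of the pathway was followed with 133 other genes in 6 lists, of which 130 were in the files and 24 had no count in any sample. Of 51 tested with nApoE4, 14 rose and 17 fell (60.8%, against 57.2% of all genes), with a median log2 fold change of 0.054. Of 51 tested with nApoE3, 25 rose and 16 fell (80.4%, against 67.7%), with a median of 0.11. In the plasminogen system, 6 of 16 genes rose and 5 fell with nApoE4, and 11 of 17 rose and 3 fell with nApoE3. In coagulation, 3 of 14 rose and 4 fell with nApoE4, and 4 of 15 rose and 6 fell with nApoE3. The adjusted p-values below are from edgeR's quasi-likelihood test over all genes.

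Serpinf2, which encodes the plasmin inhibitor antiplasmin, fell with nApoE4 from 1.15 ± 0.173 to 0.490 ± 0.256 CPM (log2 fold change -1.22, adjusted p = 0.00983) and was 0.07 apart on the log2 scale with nApoE3 (adjusted p = 0.839). The difference between the fragments for Serpinf2 did not pass the threshold (adjusted p = 0.0548).

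Plat, the gene of the other plasminogen activator, had 2, 3 and 3 counts in the nApoE4 controls and 37, 57 and 45 with nApoE4, a ratio of 18.8 (exact 95% interval 9.27 to 44.3, counting error only, adjusted p = 5.55e-06). With nApoE3 it went from 1, 2 and 0 counts to 21 and 12, a ratio of 18.1 (interval 5.68 to 92.3, adjusted p = 0.000252). Its fitted log2 fold change with nApoE3 moved from 4.01 to 4.86 without replicate 2 of the nApoE3 controls. Even so it stayed at 1.12 CPM with nApoE4 and 0.287 with nApoE3. Plg, the gene of plasminogen itself, had at most 4 counts in any sample, and Serpine2 at most 11. Of the surface proteins that bind plasminogen, the receptor gene Plgrkt rose by a log2 fold change of 0.41 with nApoE4 (adjusted p = 0.000534) and 0.42 with nApoE3 (adjusted p = 1.15e-07). Anxa2 rose by 0.34 (adjusted p = 0.0145) and 1.00 (adjusted p = 2.30e-10), and its call with nApoE4 was lost without replicate 1 of the nApoE4 controls (adjusted p = 0.0709) or replicate 1 of nApoE4 (adjusted p = 0.0688). Its partner S100a10 was 0.06 higher with nApoE4 (adjusted p = 0.617) and rose by 0.26 with nApoE3 (adjusted p = 4.18e-05). Itgav, an integrin chain, rose by 1.47 with nApoE4 (adjusted p = 1.88e-07) and 0.87 with nApoE3 (adjusted p = 9.02e-10). Hgf, a growth factor precursor that urokinase can cut, fell by 1.44 on the log2 scale with nApoE4 (adjusted p = 1.15e-05) and fell by 1.29 with nApoE3 (adjusted p = 9.26e-06).

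On the anticoagulant side of coagulation, the RNA levels of the 2 cell surface proteins that switch on protein C moved apart with both fragments. Thbd, which encodes thrombomodulin, fell from 14.0 ± 0.417 to 1.08 ± 0.137 CPM with nApoE4 (SD, n = 3 each, log2 fold change -3.69, SE 0.11, adjusted p = 5.80e-09). With nApoE3 it fell from 17.8 ± 0.599 (SD, n = 3) to 1.83 ± 0.109 CPM (SD, n = 2, log2 fold change -3.29, SE 0.07, adjusted p = 1.65e-12). Procr, which encodes the protein C receptor, rose from 5.16 ± 0.269 to 34.0 ± 1.94 CPM with nApoE4 (SD, n = 3 each, log2 fold change 2.72, SE 0.08, adjusted p = 3.81e-09). With nApoE3 it rose from 6.07 ± 0.329 (SD, n = 3) to 99.8 ± 9.86 CPM (SD, n = 2, log2 fold change 4.03, SE 0.07, adjusted p = 1.12e-13). Serpinc1, which encodes antithrombin, rose by 1.39 with nApoE4 (adjusted p = 9.92e-05) and 1.32 with nApoE3 (adjusted p = 2.90e-05) on the log2 scale, at no more than 2.92 CPM. F7, the gene of the partner of tissue factor, was well expressed at 101 to 208 CPM over all samples and rose by 0.37 (adjusted p = 0.00146) and 0.31 (adjusted p = 4.20e-07). Tfpi, the gene of the tissue factor pathway inhibitor, was at 0.25 with nApoE4 (adjusted p = 0.305) and 0.58 with nApoE3 (adjusted p = 0.0925).

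Of the clade B serpins, the mostly intracellular branch to which Serpinb2 and Serpinb9 belong, 8 further genes could be tested. With nApoE4, 2 rose and 3 fell (62.5%, against 57.2% of all genes tested). With nApoE3, 6 rose and 2 fell (100%, against 67.7%). Serpinb9b, a close relative of Serpinb9, rose from 8.45 ± 1.18 to 37.7 ± 2.1 CPM with nApoE4 (SD, n = 3 each, log2 fold change 2.16, SE 0.10, adjusted p = 8.49e-08). With nApoE3 it rose from 1.39 ± 0.155 (SD, n = 3) to 18.6 ± 1.48 CPM (SD, n = 2, log2 fold change 3.72, SE 0.09, adjusted p = 4.16e-12). Serpinb1a, whose product inhibits neutrophil elastase, fell by 1.09 on the log2 scale with nApoE4 (adjusted p = 4.97e-05) and fell by 0.53 with nApoE3 (adjusted p = 8.35e-06). Its relative Serpinb1b rose by 0.65 (adjusted p = 0.00190) and 1.18 (adjusted p = 4.49e-07). Reads that fit several of these close relatives equally well were not counted, and how much this took from Serpinb9b, Serpinb1a and Serpinb1b was not measured. Serpinb6a was at 201 to 342 CPM over all samples and was 0.05 higher with nApoE4 (adjusted p = 0.667) and fell by 0.11 with nApoE3 (adjusted p = 0.00408). Its call with nApoE3 was lost without replicate 1 of nApoE3 (adjusted p = 0.0645) and in a single fit of all 11 samples (adjusted p = 0.387), and it passed with nApoE4 without replicate 2 of the nApoE4 controls (adjusted p = 0.0278).

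None of the 22 other clade A serpins in the files had enough counts to be tested against controls, so that Serpina3f and Serpina3g stood alone in their branch. Serpina3n, the member of the group best known from reactive astrocytes, had at most 2 counts in any sample. Of the remaining clades, 3 of 8 genes rose and 2 fell with nApoE4 (62.5%, against 57.2% of all genes tested). With nApoE3, 3 of 7 rose and 2 fell (71.4%, against 67.7%). Serping1, which encodes the inhibitor of complement C1, had 1 count in each nApoE4 control and 12, 39 and 22 with nApoE4, a ratio of 26.3 (exact 95% interval 8.65 to 130.4, counting error only, adjusted p = 0.000276). With nApoE3 it rose from 0.137 ± 0.0279 (SD, n = 3) to 1.79 ± 0.184 CPM (SD, n = 2, log2 fold change 3.68, adjusted p = 4.04e-08). Serpinh1, a collagen chaperone that inhibits no protease, was 0.27 higher with nApoE4 (adjusted p = 0.116) and fell by 1.15 with nApoE3 (adjusted p = 0.000688). Of the proteases that intracellular serpins inhibit, 2 of 9 rose and 4 fell with nApoE4 (66.7%, against 57.2% of all genes tested). With nApoE3, 3 of 8 rose and 3 fell (75%, against 67.7%). Casp1, the inflammasome caspase, rose by 1.06 (adjusted p = 1.35e-05) and 1.26 (adjusted p = 4.50e-13).

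**Figure D5:**
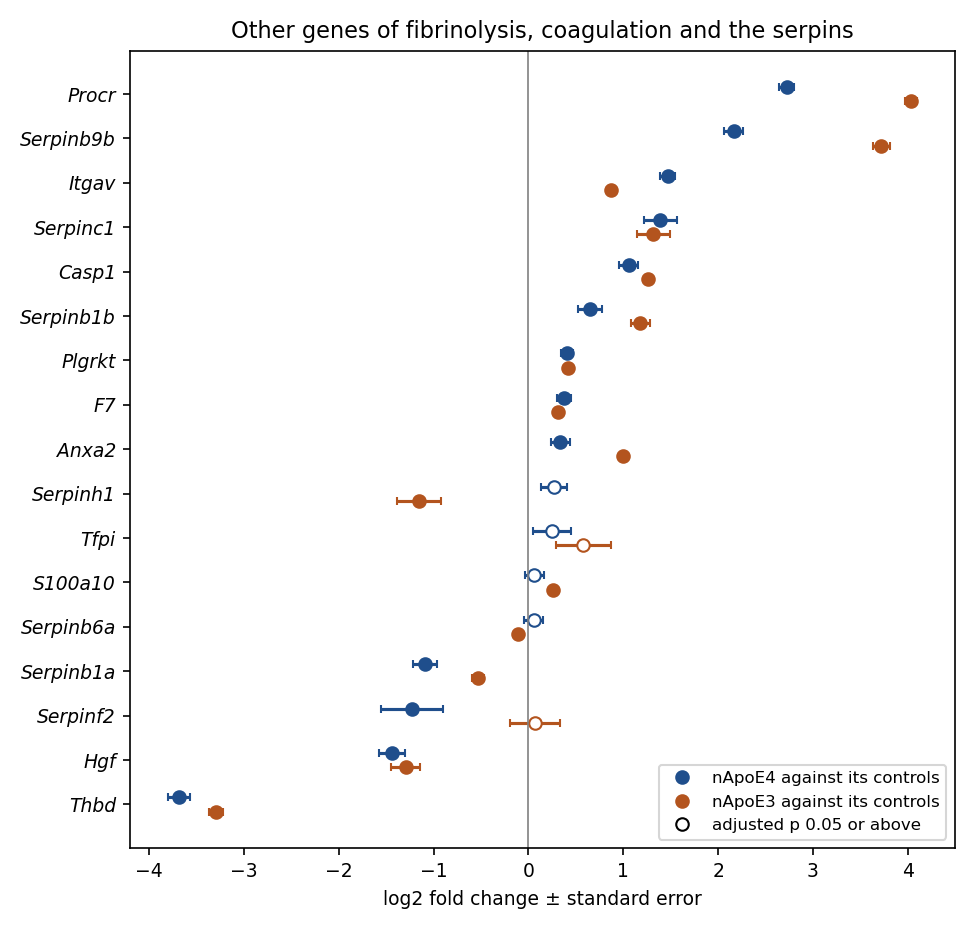
Points show the log2 fold change of 17 other genes of the pathway lists with each fragment, bars the approximate standard error, and open points values that did not pass an adjusted p of 0.05. Plat and Serping1 are left out because they had controls with 3 counts or fewer, and their fitted changes with nApoE4 were larger than that of Procr. Among the genes shown, Thbd lies furthest left for both fragments, at -3.69 and -3.29, and Procr furthest right for both, at 2.72 and 4.03.

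Genes of other cell types moved with treatment in places. The summed level of 5 endothelial markers went from 150.3 to 177 CPM down to 62.8 to 72.0 CPM with nApoE4, and from 64.2 to 66.5 down to 43.5 to 48.1 CPM with nApoE3. Nearly all of this sum was Kdr. Pecam1 reached 1.51 CPM with nApoE3, and Cldn5 was at 0 in every sample. The sum of 5 astrocyte markers went from 1.20 to 1.39 up to 6.02 to 7.03 CPM with nApoE4 and from 1.07 to 1.30 up to 4.37 to 4.53 CPM with nApoE3, nearly all of it Slc1a2, while Gfap, Aqp4, Aldh1l1 and Gja1 were below 1 CPM. The sum of 5 neuron markers went from 1.97 to 2.51 up to 5.32 to 6.39 CPM with nApoE4 and lay at 1.15 to 1.52 without and 1.5 to 1.51 CPM with nApoE3, and most of it was Tubb3. The sum of 4 oligodendrocyte markers lay at 11.38 to 14.25 CPM in the nApoE4 controls and 9.33 to 11.82 with nApoE4. It lay at 24.07 to 24.62 CPM in the nApoE3 controls and 22.16 to 25.45 with nApoE3. Most of it was Mbp, and Mog was at 0 in every sample. The part of these genes in the changes above was not tested. The 5 markers of T and NK cells, which use the granzymes that Serpinb9 inhibits, summed to at most 0.211 CPM.

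Over the 11 samples, the genes whose log2 CPM was most alike to that of a member were listed by Pearson's r among 11689 genes with a mean of at least 1 CPM. The values mostly reflect the 4 groups and their libraries and are a description only. The nearest genes were Pgam1, Cd68 and Cog3 for Plau (r 0.983 to 0.991), Pmp22, Pcgf5 and Pvr for Plaur (0.995 to 0.997) and Lacc1, Stk40 and Il12b for Serpinb2 (0.995 to 0.996). For F3 they were Kctd13, Gm5431 and Dusp4 (0.973 to 0.976) and for F10 they were Il15, Pisd and Plekho2 (0.992 to 0.995). Ccl3, Mnda and Hcar2 were nearest to Serpinb9 (0.997 to 0.998), Tlr3, Mov10 and Ddx24 to Serpina3f (0.993 to 0.994) and Ctps, Cirh1a and Psmd1 to Serpina3g (0.992 to 0.995). None of the 8 genes was among the 3 nearest of another.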

How the data were processed

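Cultures of BV2 cells were grouped by the sample labels into nApoE4, its controls, nApoE3 and its controls. The authors removed adapters from single-end reads of 75 bp with Trim Galore 0.5.0, checked quality with FastQC 0.11.8, mapped to GRCm38.p6 with HISAT2 2.1.0 and counted reads per gene with HTSeq 0.11.0. They deposited raw counts without normalization. The annotation release, strand setting and overlap mode are not given in the sources used here. Reads counted on genes were 76.0 to 77.7% of those tallied, reads mapped to several places 11.7 to 13.2% and ambiguous reads 3.24 to 3.56%. These tallies were left out of library sizes.

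The counts were fitted with edgeR 4.0.16 in R 4.3.3 (filterByExpr, TMM, quasi-likelihood F test, Benjamini-Hochberg adjustment over all genes tested, threshold 0.05). Each fragment was fitted with its own controls, the difference between fragments as an interaction over 11 samples, and the control groups against each other. An approximate standard error was derived from each log2 fold change and its F statistic. CPM are counts scaled by TMM library size over all 11 samples together. Exact intervals of count ratios are Clopper-Pearson at 95% and cover counting error only. Genes were placed with the GRCm38 annotation and CPM per kb used their exonic length. Promoter windows were from RefSeq (GRCm38.p6). The scripts were tested on simulated data with 200 changed genes, far fewer than were called in the samples. Of changes of 1 on the log2 scale, 80% were recovered with nApoE4, 81% with nApoE3, 62% for the difference and 80% between the control groups. Of the genes called in the simulated data, 5.98 to 8.42% had not been changed, above the 0.05 aimed at.

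The 8 genes, the lists and the tests were chosen with earlier results of these data known. Of each list, genes past the threshold with a fold change above 2 and at least 1 CPM in some group are named, at most 4 in each direction, beside a fixed set of known pathway genes given whatever their value (Plat, Plg, Serpine2, Serpinf2, Plgrkt, Anxa2, S100a10, F7, Tfpi, Thbd, Procr, Serpinb6a, Serpinb1a, Serping1 and Serpina3n), with the 3 genes most alike to each of the 8. One gene that the rule would name is not reported here, though the counts over lists include it. The alternatives were DESeq2 1.42.0, its size factors in edgeR, 2 other filters, a single fit of all 11 samples, a block for the replicate number, a test against a fold change of 2, and leaving out each replicate in turn.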

Additional observations from a re-analysis of the deposited data

Results flagged for a closer look

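Plau went in opposite directions in the 2 experiments, with every sample with nApoE4 below its controls (log2 fold change -1.38) and both samples with nApoE3 above theirs (0.61). Plau was selected on this contrast, so its difference is a description and no independent test of it was made. The following genes of the pathway lists differed between the fragments in the interaction test of edgeR, given as the change with nApoE4 minus that with nApoE3 on the log2 scale. The log2 rise was smaller with nApoE4 for Serpinb9b (-1.57, adjusted p = 9.78e-06), Procr (-1.32, adjusted p = 2.13e-06) and Anxa2 (-0.67, adjusted p = 0.00133). The control levels of Anxa2 were far apart, at 286 CPM in the nApoE4 controls and 38.6 in the nApoE3 controls. Those of Serpinb9b were 8.45 and 1.39 CPM in the same order, while those of Procr were close, at 5.16 and 6.07. In CPM, Anxa2 reached 360 with nApoE4 and 77.5 with nApoE3. Itgav rose more on the log2 scale with nApoE4 (0.59, adjusted p = 0.000529). Its control levels were 37.5 CPM in the nApoE4 controls and 64.5 in the nApoE3 controls, and it reached 103 with nApoE4 and 119 with nApoE3. Serpinh1 fell with nApoE3 and did not pass the threshold with nApoE4, with a difference of 1.41 (adjusted p = 0.00100).

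For 3 further genes the difference passed and was lost without single libraries or under other settings. Thbd fell more with nApoE4 (-0.41, adjusted p = 0.0449), and this was lost without replicate 2 or 3 of the nApoE4 controls (adjusted p = 0.0520 and 0.0567), replicate 2 or 3 of nApoE4 (0.218 and 0.0834), any replicate of the nApoE3 controls (0.0586, 0.0841 and 0.0654) or either replicate of nApoE3 (0.217 and 0.0633). It was also lost in DESeq2 (adjusted p = 0.0898), with a replicate block (0.155) and with genes kept on 1 count (0.152). Serpinb1a fell more on the log2 scale with nApoE4 (-0.57, adjusted p = 0.0241), from 69.2 to 32.4 CPM, against 37.9 to 26.3 CPM with nApoE3. This difference was lost without replicate 1 or 2 of nApoE4 (adjusted p = 0.0586 and 0.0502) or replicate 1 or 2 of the nApoE3 controls (0.0585 and 0.0530). Without replicate 1 or 2 of nApoE3, which leaves 1 sample with nApoE3, it was -0.63 and -0.51. Serpinb1b rose less on the log2 scale with nApoE4 (-0.54, adjusted p = 0.0251), from 3.69 to 5.78 CPM, against 2.66 to 6.07 CPM with nApoE3. This difference was lost without replicate 1 of the nApoE4 controls (adjusted p = 0.0599), replicate 2 of nApoE4 (0.0552) or replicate 2 of the nApoE3 controls (0.0568). It was also lost with a replicate block (0.122) or with genes kept on 1 count (0.0574). Without replicate 1 or 2 of nApoE3, which leaves 1 sample with nApoE3, it was -0.57 and -0.51.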

How the results depend on the processing

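The 8 genes kept the direction of their change with each fragment in all 181 values recomputed, 157 of which moved by less than the SD between treated replicates. Their median log2 fold change stayed between 1.94 and 2.15 with nApoE3. With nApoE4 it was 0.81 with genes kept only if all samples held 10 counts, where Serpinb2 and other low genes drop out, and 1.02 to 1.15 when single replicates were left out. The test against a fold change of 2 asks for larger changes, and the number of genes past it was 1575 with nApoE4, 1495 with nApoE3, 191 for the difference between the fragments and 1354 between the control groups. Of the pathway genes, 8, 8, 2 and 12 passed it in the same order, in place of 31, 41, 18 and 44. The labels share replicate numbers between groups, and no label says that the numbers pair the samples. Deviations from the group mean correlated at -0.41 to 0.0132 between samples with the same number. Because such deviations cancel within each small group, these values cannot decide whether the numbers pair the samples. With the number as a replicate block, 7036 genes passed with nApoE4, 9786 with nApoE3 and 2307 in place of 4331 for the difference. Leaving out single replicates gave 7142 to 8827 genes for nApoE4, 9121 to 9837 for nApoE3, 3040 to 5250 for the difference and 8949 to 10988 between the control groups, and 26 to 34, 37 to 40, 12 to 20 and 42 to 46 pathway genes. No other named gene turned direction where a value passed the threshold. Of 338 values of the difference between fragments, 32 fell short of a threshold passed before and 6 passed it newly, Serpinf2 among the latter (adjusted p = 0.0391 in DESeq2, 0.0374 with 1 count enough to be kept, 0.0405 with 10 counts asked of each sample, 0.0353 without replicate 2 of the nApoE4 controls and 0.00777 without replicate 3 of nApoE4). Depth limits Serpinb2, Plat and Serping1, whose controls held 3 counts or fewer in at least one experiment.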
